A study of Mus musculus with 6 samples.

Results

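The C-type lectins and Siglecs of mouse epididymal fat were described by 38 of the 54532 genes in the count table. Earlier results of these data were known when they were chosen. They were taken by name, as every protein-coding gene of the mouse GENCODE annotation with a symbol starting with Clec or Siglec, except Siglec15. Cd22, Cd33 and Mag were added. This gave 30 Clec genes and 8 Siglecs. Clec7a, Clec2f and Clec2j carry a pseudogene biotype in that annotation and were therefore not among them. RNA-Seq was performed on the visceral (epididymal) fat of male C57BL/6J mice, with 3 libraries from mice fed a normal diet (ND, 4.5% fat) and 3 from mice fed a high-fat diet (HFD, 60% fat). Feeding started when the mice were 4 weeks old and continued for 16 weeks, which brought the HFD mice to 20 weeks of age. All 6 samples are labelled as untreated, and no transgene or deletion is named for either diet. The labels number the samples of each diet but do not say that each came from a separate mouse, so the p-values measure only the spread between these samples. The gene counts of the libraries summed to between 16996896 and 18859320. A count of 3, taken as the lowest level that could be told from none, corresponded to 0.15 to 0.18 CPM (counts relative to the effective library size).

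C-type lectins are proteins with a lectin fold that binds sugars, lipids or proteins, and many of them are receptors on macrophages, dendritic cells and other myeloid cells. The activating receptors pass their signal through adaptors with an immunoreceptor tyrosine-based activation motif (ITAM), such as Fcer1g and Tyrobp, to the kinase Syk, whereas inhibitory receptors carry an inhibitory motif (ITIM) that recruits the phosphatases Ptpn6 and Inpp5d. Siglecs are sialic acid-binding receptors of the immunoglobulin family, and most of them are inhibitory. In adipose tissue these receptors are known mainly from resident and recruited macrophages: Clec4e (Mincle) from macrophages around dying adipocytes, and Clec10a from resident macrophages. Other genes named Clec code for secreted or endothelial proteins.

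Many of the members lie side by side in the genome. The annotation (GRCm38) places 22 of the 38 on chromosome 6 and 8 on chromosome 7. Promoter sequences of 4 of them are shown because all of these hold the core of the binding motif of the myeloid transcription factor PU.1. They were also picked because 3 lie in the same gene group on chromosome 6 and rose on the HFD, and the fourth, Siglece, did not rise. Each sequence is the 250 bases before the RefSeq transcription start (GRCm38.p6), written 5′ to 3′ on the strand of the gene, with GAGGAA or its reverse complement TTCCTC in capitals. The windows are chr6:123261857-123262106 (+) for Clec4d, chr6:123289872-123290121 (−) for Clec4e, chr6:123049712-123049961 (+) for Clec4b1 and chr7:43660162-43660411 (−) for Siglece.
Clec4d: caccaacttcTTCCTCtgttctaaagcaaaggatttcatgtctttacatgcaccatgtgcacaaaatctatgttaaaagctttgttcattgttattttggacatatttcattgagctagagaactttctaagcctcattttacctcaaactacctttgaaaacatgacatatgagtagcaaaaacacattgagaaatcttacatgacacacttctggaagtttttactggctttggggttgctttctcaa
Clec4e: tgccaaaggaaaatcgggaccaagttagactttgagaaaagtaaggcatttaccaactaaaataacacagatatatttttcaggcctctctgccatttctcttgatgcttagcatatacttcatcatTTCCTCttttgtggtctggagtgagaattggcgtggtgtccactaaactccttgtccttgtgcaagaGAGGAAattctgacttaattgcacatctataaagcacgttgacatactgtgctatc
Clec4b1: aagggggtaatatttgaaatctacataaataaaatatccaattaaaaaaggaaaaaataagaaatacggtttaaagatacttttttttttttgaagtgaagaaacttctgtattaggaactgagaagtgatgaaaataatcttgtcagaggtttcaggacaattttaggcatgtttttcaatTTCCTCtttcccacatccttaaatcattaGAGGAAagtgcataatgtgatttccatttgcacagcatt
Siglece: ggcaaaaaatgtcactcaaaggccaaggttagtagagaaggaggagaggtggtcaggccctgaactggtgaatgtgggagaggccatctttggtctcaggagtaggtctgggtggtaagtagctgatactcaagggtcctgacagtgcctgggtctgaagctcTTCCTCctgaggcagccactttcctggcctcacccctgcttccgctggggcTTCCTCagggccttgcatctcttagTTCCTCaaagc
The match in Clec4d began 240 bases before the start, those in Clec4e 123 and 56 bases before it, and those in Clec4b1 68 and 39 bases before it. Siglece held 3 matches, at 87, 36 and 11 bases. RefSeq held a promoter for 31 of the 38 members. GAGGAA was present on either strand in 18 of these 31 (58.1%), against 25.9% of the promoters of all 27025 genes in the same window. It was found in 7 of the 9 members called higher below that had an entry, but not in Clec4a2 or Cd22. Of those tested and not called 8 of 12 held it, and of those not tested 3 of 10. The C/EBP motif TTGCNNAA, searched on both strands and whose matches may overlap those of the first, occurred in 6 of the 31 (19.4%), against 10.8% of all genes, and in 2 of the 9 members called higher. These matches describe the letters of the windows and say nothing of binding.

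The question asked of these genes was which of them differed between the visceral fat of ND and HFD mice. On the HFD 10 of the 38 members rose and none fell. The genes that rose were the activating receptors Clec4d, Clec4e and Clec4b1, the DCIR-type and MICL receptors Clec4a1, Clec4a2, Clec4a3 and Clec12a, and the Siglecs Siglec1, Cd22 and Siglecf. The largest change was in Clec4d, at 45.7-fold (5.51 on the log2 scale, and 3.94 without HFD replicate 3). The test was edgeR's quasi-likelihood test with Benjamini-Hochberg adjustment over all 15751 genes tested, and a gene was called at an adjusted p under 0.05. Of the members 26 had enough counts for the test and 12 did not. Across all tested genes, 9.85% were called higher and 6.04% lower, 15.9% in all, and the 10 of 26 higher members are to be read against the first of these shares. The 3 HFD libraries lay above all 3 ND libraries for 12 of the 26 members, against 21.7% of all tested genes, and below them for 2, against 19.1%, so that 14 members did not overlap, against 40.9%. The median log2 fold change was 0.40 over the 26 members and 0.0074 over all tested genes. No member was lower by edgeR or by DESeq2. DESeq2 called 11 members higher, and 11.2% of the 18348 genes it tested higher and 8.81% lower. At an unadjusted p under 0.05, 13 of the 26 differed by edgeR, of which Clec3b and Siglech were lower. The number of higher members depended on single libraries: it was 2 without ND replicate 1, 3 without ND replicate 2, 5 without ND replicate 3 and 4 without HFD replicate 1, and it was 12 without HFD replicate 2 and 9 without HFD replicate 3.

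In these whole-tissue libraries, more cells of a type and more RNA per cell cannot be told apart. Of the 10 macrophage markers, 9 rose by edgeR and by DESeq2, with a median log2 fold change of 1.65 by edgeR (Mertk did not, at -0.02). By edgeR 3 of them were called without HFD replicate 1, ND replicate 1 or ND replicate 2, 5 without ND replicate 3 and 9 without HFD replicate 2 or 3. Their summed level lay between 1737 and 1845 CPM in the ND libraries and was 4951, 3869 and 8465 CPM in HFD replicates 1 to 3. HFD replicate 3, which had the highest value, also had the lowest summed levels of the adipocyte list (12707 CPM, against 18476 to 27268 in the other 5) and of the endothelial list (543 CPM, against 959 to 1274). In each of the 10 members that rose, HFD replicate 2 was the lowest and HFD replicate 3 the highest of the HFD libraries, the same order as in the macrophage sum. No macrophage marker was at 0. Adipocyte markers were abundant in every library, as the tissue label asks, and of these 6 genes Lep rose by edgeR, a call that held in 2 of the 6 fits without a library (adjusted p = 0.0508 to 0.0628 without HFD replicate 1 or any ND replicate). DESeq2 also called Plin1 lower (adjusted p = 0.0482). The part of these cell type differences in the changes of the members was not tested. The ratios given further below cannot tell more cells from more RNA per cell either.

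**Figure D1:**
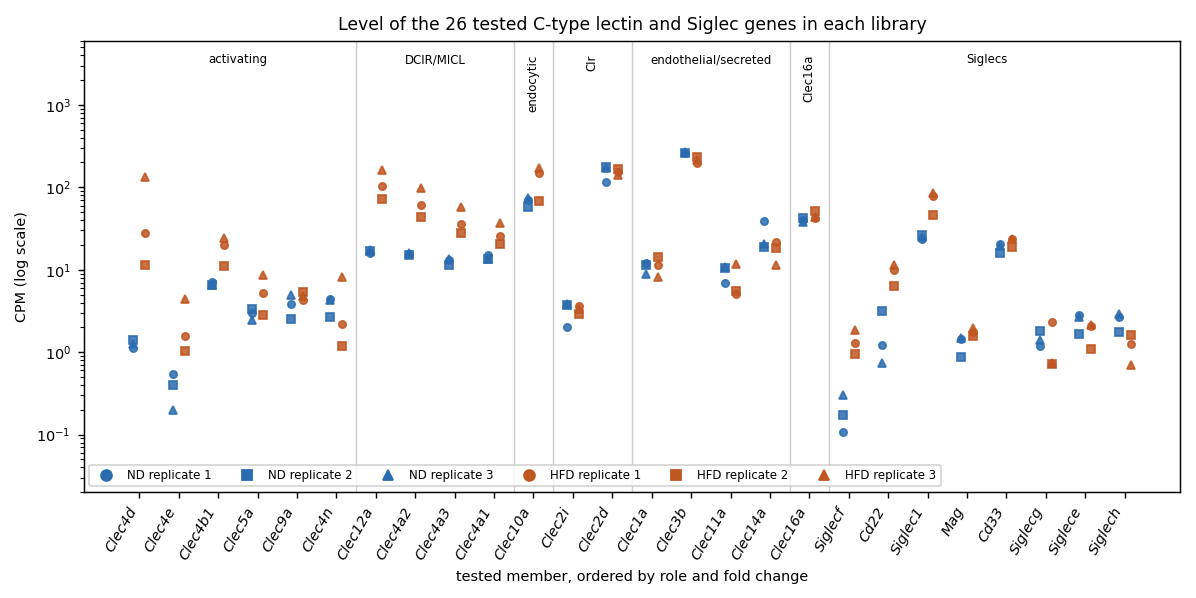
Level of each of the 26 tested members in each library, in CPM on a log scale, with ND libraries in blue, HFD libraries in orange and the replicate number shown by the symbol. All 3 HFD points stand above all 3 ND points for 12 members, and the widest gap is that of Clec4d, from 1.39 CPM in the highest ND library to 11.4 CPM in the lowest HFD library.

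Levels of different genes were compared per transcript length, as the deposited FPKM (fragments scaled to transcript length and library size). Clec3b, which codes for the secreted plasminogen-binding protein tetranectin, and Clec2d, which codes for Clr-b, a ligand of the inhibitory NK cell receptor Klrb1b, were the most abundant members. Clec3b averaged 244 FPKM over the 6 libraries and Clec2d 128 FPKM, and together they gave 78.8%, 83.1% and 81.4% of the members' summed FPKM in the ND libraries. On the HFD their share was 60.1%, 72.8% and 48.5%, below every ND library. Clec10a followed with 34.5 FPKM, and then Clec4a3 with 20.2 and Clec4d with 18.5 FPKM. The mean of Clec4d rests on the HFD libraries, since it was under 1 FPKM in every ND library. It rests mostly on HFD replicate 3, with 17.4, 7.20 and 83.9 FPKM in HFD replicates 1, 2 and 3. Clec4b1, Clec4a2, Clec4a1, Clec12a and Siglec1 completed the 10 most abundant members, with means between 16.1 and 6.74 FPKM. On the HFD, Clec4b1 (23.5 ± 8.40 FPKM, SD, n = 3), Clec4a2 (23.2 ± 9.51) and Clec12a (20.7 ± 8.46), neighbours in the order, did not differ beyond their spread. In all, 14 members reached 1 FPKM in every library. On the ND the order differed: Clec10a (23.9 ± 2.88 FPKM, SD, n = 3) stood well above Clec4a3 (9.71 ± 0.848), Clec4a1 (9.23 ± 0.686) and Clec4b1 (8.73 ± 0.533), which did not differ beyond their spread. Clec4d was at 0.798 ± 0.084 FPKM on the ND and at 36.2 ± 41.6 FPKM on the HFD.

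Among the activating receptors, which couple to ITAM adaptors or carry a hemITAM themselves, 3 of 8 members rose, 3 were tested without passing the threshold and 2 had too few counts. Of all tested genes 9.85% were called higher. Clec4d (also MCL or Dectin-3, chr6:123262111-123275265) is a receptor for mycobacterial glycolipid that pairs with Mincle and Fcer1g. It was at 1.13, 1.39 and 1.25 CPM in the ND libraries and at 27.7, 11.4 and 134 CPM in the HFD libraries. The ND libraries were close together, whereas the HFD libraries spread widely and all lay above the ND. In Clec4d the log2 fold change was 5.51 (SE 1.0), with an adjusted p of 0.0155 by edgeR's test. Clec4e (Mincle, chr6:123281789-123289870), its neighbour and partner, recognises the same glycolipid and a nuclear protein released from dead cells. It was far lower, also in FPKM, with counts of 10, 7 and 4 on the ND and 29, 17 and 76 on the HFD. These are 0.539, 0.405 and 0.200 CPM against 1.58, 1.02 and 4.37 CPM. The diets did not overlap, and the log2 fold change of Clec4e was 2.60 (SE 0.67), with an adjusted p of 0.0423 by edgeR. Clec4b1 (DCAR, chr6:123049962-123071555) is a further receptor that signals through Fcer1g. It was at 7.17, 6.54 and 6.49 CPM on the ND and at 19.7, 11.1 and 24.0 CPM on the HFD, 2.72-fold higher in the fit. The log2 fold change was 1.44 (SE 0.28), with an adjusted p of 0.0192 by edgeR.

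These 3 calls were not stable when a library was left out of the edgeR fit. Clec4d lost its call without ND replicate 1, 2 or 3 (adjusted p = 0.0686, 0.0702 and 0.0591), though its log2 fold change stayed between 3.94 and 6.0, the lowest being without HFD replicate 3. With all libraries, Clec4d also lost its call with limma-voom (adjusted p = 0.0894) and in edgeR with no filter on low counts (adjusted p = 0.0943), and Clec4e with limma-voom (adjusted p = 0.0649). Clec4e kept its call only without HFD replicate 2 (adjusted p = 0.0161) and had adjusted p values of 0.0873 to 0.119 without any of the other 5. Clec4b1 was called without HFD replicate 2 or 3, and had adjusted p values of 0.0837 without HFD replicate 1 and 0.0701, 0.0758 and 0.0648 without ND replicates 1, 2 and 3.

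The remaining activating receptors did not pass the threshold. Clec4n, Dectin-2, the receptor for fungal mannans that is encoded next to Clec4d, had counts of 81, 46 and 86 on the ND and 40, 20 and 144 on the HFD. HFD replicates 1 and 2 lay below every ND library and HFD replicate 3 above them. The log2 fold change was 0.04 (adjusted p = 0.972, edgeR), and without HFD replicate 3 it turned to -1.17 (adjusted p = 0.116). Clec5a, which signals through Tyrobp and Hcst, showed a log2 fold change of 0.95 (adjusted p = 0.156, edgeR), and was called without HFD replicate 2 (1.28, adjusted p = 0.0311). Clec9a, the receptor for actin filaments of dead cells on cross-presenting dendritic cells, showed a log2 fold change of 0.35 (adjusted p = 0.451, edgeR). Clec1b, the podoplanin receptor of platelets, had 5 to 25 counts a library, and its exons overlap those of Clec9a, so that their reads cannot be fully told apart. Clec4b2 had no count on the ND and 2, 2 and 0 counts on the HFD. The library kit does not mark strand as far as the sources used here state.

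The ratio of one receptor to another within a library is free of the scaling of libraries. Clec4d counts exceeded those of Clec4e by 2.10, 3.43 and 6.25 times on the ND and by 17.5, 11.2 and 30.6 times on the HFD. Clec4n counts were 3.86, 1.92 and 3.44 times those of Clec4d on the ND and 0.0787, 0.105 and 0.0619 times on the HFD. Both ratios separated the diets completely: of these neighbouring genes Clec4n was the higher, in counts and in FPKM, in every ND library and Clec4d in every HFD library. In an exact 2-sided permutation test each of the 6 ratios computed gave p = 0.1, the smallest that 3 samples against 3 allow, also after Benjamini-Hochberg adjustment, so none can pass the threshold.

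All 4 tested receptors of the DCIR and MICL type rose, against 9.85% of all tested genes, while Clec4a4 and Clec12b had too few counts. Clec12a (MICL, chr6:129342691-129365303) is an inhibitory receptor that recognises uric acid crystals. It was at 15.9, 16.7 and 17.3 CPM on the ND and at 105, 72.0 and 164 CPM on the HFD. The ND libraries were nearly equal and each HFD library was more than 4 times as high as any of them. The log2 fold change of Clec12a was 2.78 (SE 0.29), with an adjusted p of 0.00554 by edgeR. Clec4a2 (DCIR1, chr6:123106428-123143999), the ITIM-bearing dendritic cell immunoreceptor, was at 15.7, 14.9 and 15.9 CPM on the ND and at 61.4, 43.1 and 97.7 CPM on the HFD. Its log2 fold change was 2.12 (SE 0.29), with an adjusted p of 0.00813 by edgeR. Clec12a and Clec4a2 were the only members called in all 6 fits that left out a library.

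Clec4a3 and Clec4a1 code for DCIR-type proteins without the inhibitory motif. Clec4a3 was at 13.1, 11.3 and 13.6 CPM on the ND and at 35.8, 28.1 and 57.9 CPM on the HFD, with a log2 fold change of 1.68 (SE 0.27, adjusted p = 0.0115, edgeR). Clec4a1 was at 15.3, 13.5 and 13.7 CPM on the ND and at 25.4, 20.5 and 36.7 CPM on the HFD, with a log2 fold change of 0.96 (SE 0.22, adjusted p = 0.0293, edgeR). On the ND, Clec12a, Clec4a1, Clec4a2 and Clec4a3 had like counts, and on the HFD they spread out. The ratio of Clec12a to Clec4a1 was 1.04, 1.24 and 1.26 on the ND and 4.13, 3.51 and 4.48 on the HFD (exact permutation p = 0.1, the smallest possible). Without ND replicate 1 or 2 the adjusted p of Clec4a3 was 0.0534 and 0.0569, and Clec4a1 was at 0.0916, 0.0888, 0.0987 and 0.0894 without HFD replicate 1 and ND replicates 1, 2 and 3 in turn. Clec4a4 (1, 1 and 0 counts on the ND, 6, 1 and 4 on the HFD) shared 12.7% of its 75-base windows with Clec4a2, so that a read counted for it may come from its neighbour. Clec12b had 2, 0 and 4 counts on the ND and 11, 6 and 3 on the HFD.

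**Figure D2:**
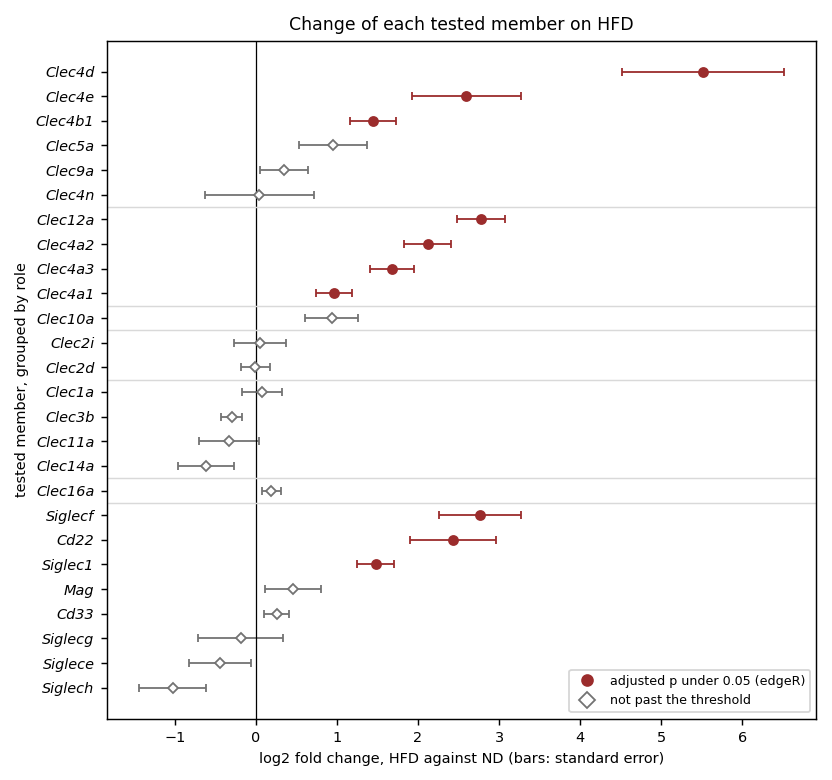
Log2 fold change of the 26 tested members on the HFD against the ND, grouped by role from the activating receptors at the top to the Siglecs at the bottom, with bars of 1 standard error. Filled points are the 10 members with an adjusted p under 0.05 by edgeR, from 0.96 for Clec4a1 to 5.51 for Clec4d, and open points are the 16 that did not pass.

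The endocytic receptor Clec10a, the macrophage galactose lectin Mgl1, did not pass the threshold in the edgeR fit. It was at 70.8, 58.4 and 75.03 CPM on the ND and at 150, 67.4 and 174 CPM on the HFD. HFD replicate 2 fell within the ND range and the other two HFD libraries stood above it. The log2 fold change was 0.94 (SE 0.33, adjusted p = 0.0919), and it was called by DESeq2 (adjusted p = 0.0302) and by edgeR without HFD replicate 2 (1.25, adjusted p = 0.00246). Its paralog Mgl2, the closely related galactose-type lectin that is no member by name, was called lower, with a log2 fold change of -1.03 (SE 0.26, adjusted p = 0.0406, edgeR). The call of Mgl2 held without HFD replicate 2 or 3 and was lost without HFD replicate 1 or ND replicates 1, 2 and 3 (adjusted p = 0.133, 0.127, 0.0919 and 0.0955). Mgl2 was at 78.0, 62.8 and 70.2 CPM on the ND and at 34.3, 47.2 and 21.7 CPM on the HFD. Clec10a counts were thus 0.908, 0.931 and 1.07 times those of Mgl2 on the ND and 4.39, 1.43 and 7.99 times on the HFD (exact permutation p = 0.1). The paralogs share 4.44% of the 75-base windows of Clec10a, and Mgl2 was set beside it after its values were seen. The other endocytic members are known from liver: Clec4f, of Kupffer cells, had no count, and Clec4g, of liver sinusoidal endothelium, had at most 8.

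The Clr proteins, ligands of NK cell receptors, gave no call. Clec2d was at 116, 176 and 170 CPM on the ND and at 152, 168 and 141 CPM on the HFD, and the diets overlapped throughout. Its log2 fold change was -0.01 (SE 0.18, adjusted p = 0.987, edgeR). Clec2i (Clr-g) showed a log2 fold change of 0.05 (adjusted p = 0.931, edgeR) at 2.05 to 3.79 CPM over all libraries. Clec2e, Clec2g and Clec2l had between 0 and 29 counts a library, the highest in ND replicate 3 for Clec2l, and Clec2h had no count.

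The endothelial and secreted proteins gave no call either, and 3 of the 4 tested had a negative fold change. Clec3b (tetranectin, chr9:123150946-123157432) was at 259, 263 and 270 CPM on the ND and at 200, 231 and 213 CPM on the HFD. All HFD libraries lay below all ND libraries, and the log2 fold change was -0.30 (SE 0.13, adjusted p = 0.143, edgeR). Clec14a, a receptor of endothelial cells that binds multimerin 2, showed a log2 fold change of -0.62 (adjusted p = 0.248, edgeR), with its highest level, 39.3 CPM, in ND replicate 1 and its lowest, 11.5 CPM, in HFD replicate 3. Of the 6 endothelial markers none was called by edgeR, and Kdr was called lower by DESeq2 (adjusted p = 0.0484). Their sum was likewise highest in ND replicate 1 (1274 CPM) and lowest in HFD replicate 3 (543 CPM). Clec11a, the secreted bone growth factor osteolectin, showed a log2 fold change of -0.34 (adjusted p = 0.559, edgeR), and Clec1a, a receptor of endothelial and myeloid cells, one of 0.08 (adjusted p = 0.852, edgeR). Clec18a had 0, 6 and 20 counts on the ND and 0, 1 and 0 on the HFD, and Clec3a, of cartilage, had at most 1. Clec16a, an intracellular protein of the endolysosomal and mitophagy pathways that is no lectin receptor, was at 40.4, 42.1 and 37.5 CPM on the ND and at 42.8, 51.0 and 43.1 CPM on the HFD. The diets of Clec16a did not overlap, but the log2 fold change was only 0.19 (SE 0.12, adjusted p = 0.299, edgeR).

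Of the 8 Siglecs, all tested, 3 rose, against 9.85% of all tested genes. Siglec1 (sialoadhesin, CD169, chr2:131069220-131086765), an adhesion receptor of macrophages, was the most abundant, at 23.8, 26.7 and 25.2 CPM on the ND and 79.1, 45.9 and 85.7 CPM on the HFD. Its log2 fold change was 1.48 (SE 0.23), with an adjusted p of 0.0111 by edgeR. All HFD libraries were above the ND, with HFD replicate 2 the lowest of them, as in the other members that rose. Cd22 (Siglec-2, chr7:30865402-30880342), the inhibitory Siglec of B cells, was at 1.24, 3.18 and 0.748 CPM on the ND and at 10.04, 6.43 and 11.3 CPM on the HFD. ND replicate 2 was the highest ND library and still below every HFD library, and the log2 fold change was 2.43 (SE 0.53, adjusted p = 0.0257, edgeR). Siglecf (chr7:43351341-43359531), the inhibitory Siglec of eosinophils and of alveolar macrophages, had 2, 3 and 6 counts on the ND and 24, 16 and 32 on the HFD. Its HFD libraries were at 0.962 to 1.84 CPM, with a log2 fold change of 2.77 (SE 0.51, adjusted p = 0.0154, edgeR). The ND counts of Siglecf are near the level that could be told from none, so the size of its fold change rests on few counts.

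Each of these 3 calls was lost without some single library. The adjusted p of Siglec1 was 0.0526, 0.0546 and 0.0507 without HFD replicate 1, ND replicate 1 and ND replicate 2. That of Cd22 was 0.0960, 0.0975 and 0.0575 without HFD replicate 1, ND replicate 1 and ND replicate 3. That of Siglecf was 0.0657, 0.0686 and 0.0679 without HFD replicate 1, ND replicate 1 and ND replicate 2. The exons of Cd22 overlap those of Gm29439 on the opposite strand, which share 5.89% of the 75-base windows of Cd22, so that without strand their reads cannot be told apart there.

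Cd22 and Siglecf were set beside markers of the cells they are known from. None of the 6 B cell markers was called by edgeR, also without any single library, or by DESeq2, and their sum was 9.64, 19.8 and 6.29 CPM on the ND and 22.7, 13.0 and 6.78 CPM on the HFD. ND replicate 2, the ND library with the most Cd22, also had the most B cell signal of the ND libraries, but HFD replicate 3, with the most Cd22 of all, had about as little B cell signal as ND replicate 3. The ratio of Cd22 to the summed B cell counts was 0.128, 0.161 and 0.119 on the ND and 0.441, 0.495 and 1.66 on the HFD, without overlap (exact permutation p = 0.1). Of the 5 eosinophil markers 2 could be tested and Ccr3 rose by edgeR (2 of the 6 fits without a library), while Epx, eosinophil peroxidase, had 1 count in all libraries together. Their sum was 1.02 to 1.51 CPM on the ND and 3.55, 1.503 and 4.31 CPM on the HFD. The ratio of Siglecf to them was 0.105, 0.115 and 0.207 on the ND and 0.369, 0.640 and 0.427 on the HFD (exact permutation p = 0.1). The cells that carried these transcripts were not identified.

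**Figure D3:**
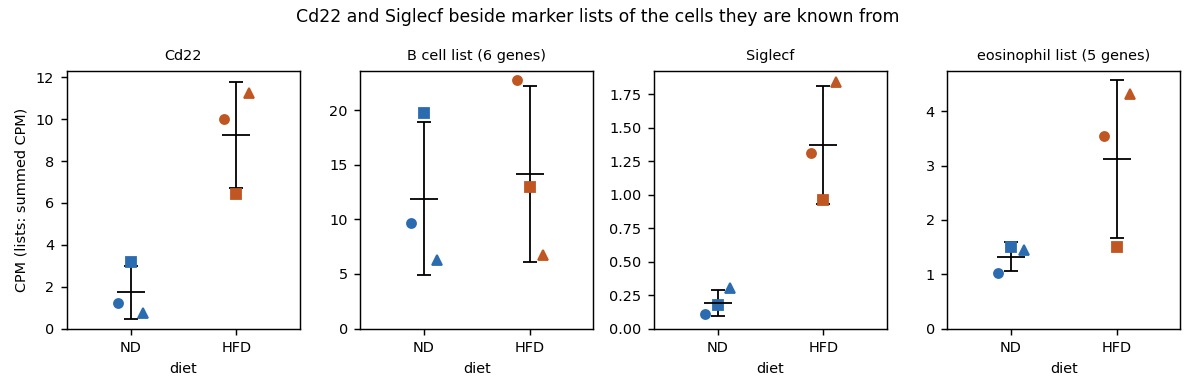
Cd22, the summed B cell list, Siglecf and the summed eosinophil list in CPM by diet, with circles, squares and triangles for replicates 1, 2 and 3, long lines for means and bars of 1 SD (n = 3). Cd22 and Siglecf do not overlap between the diets, the B cell list spans 6.29 to 19.8 CPM on the ND and 6.78 to 22.7 CPM on the HFD, and the eosinophil sum of HFD replicate 2 (1.503 CPM) lies within the ND range.

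The other 5 Siglecs were not called. Siglech, a Tyrobp-coupled receptor of plasmacytoid dendritic cells, was at 2.64, 1.74 and 2.89 CPM on the ND and at 1.25, 1.62 and 0.690 CPM on the HFD. All HFD libraries lay below the ND, with a log2 fold change of -1.03 (SE 0.41, adjusted p = 0.128, edgeR). Mag, the myelin-associated glycoprotein of Schwann cells and oligodendrocytes, was at 1.45, 0.868 and 1.497 CPM on the ND and at 1.75, 1.56 and 1.95 CPM on the HFD, without overlap, and its log2 fold change was 0.46 (SE 0.34, adjusted p = 0.388, edgeR). Of the 4 Schwann cell markers tested, Mbp rose (1.02, adjusted p = 0.00615, edgeR), but the median log2 fold change of the 4 was -0.45. DESeq2 called 1 gene of this list higher and 1 lower. The list summed to 260 to 340 CPM on the ND and 246 to 405 CPM on the HFD. Cd33 showed a log2 fold change of 0.25 (adjusted p = 0.292), Siglece, an inhibitory receptor of neutrophils and monocytes, one of -0.44 (adjusted p = 0.458) and Siglecg, an inhibitory receptor of B cells, one of -0.19 (adjusted p = 0.830), all by edgeR with overlapping diets. For Siglecg this stands beside the rise of Cd22, with which it is known to share the B cell, but the difference between the pair was not tested.

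Of the 10 members that rose, 6 lie in 1 group on chromosome 6. This Clec4 group spans 368 kb (chr6:122921848-123289870) with 9 members and no other protein-coding gene, and 6 of its 7 tested members were called higher, the exception being Clec4n. Across all tested genes 9.85% were. The count of this group was 1 without ND replicate 1 or 2, where Clec4a2 alone was called, 2 without ND replicate 3 and 3 without HFD replicate 1, and it was 6 without HFD replicate 2 and 5 without HFD replicate 3. Further along the same chromosome, 10 members and 8 other protein-coding genes occupy 790 kb (chr6:128662385-129452000), where 5 members were tested and Clec12a alone was called. Its tested non-member neighbours had log2 fold changes of -0.93 for BC035044, -0.44 for Klrb1c, 0.31 for Klrb1b and 0.08 for Cd69, and none of these was called. On chromosome 7, 1 of the 4 members from Siglecf to Siglece (309 kb, chr7:43351341-43660161) was called, and of the neighbours Cd22 and Mag, 18.8 kb apart, Cd22 was.

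**Figure D4:**
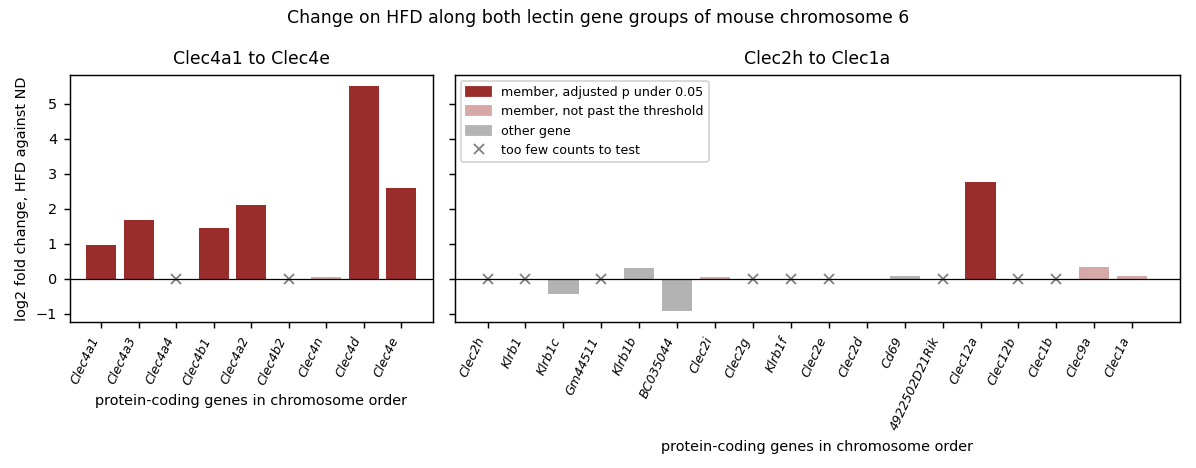
Log2 fold change on the HFD of the protein-coding genes along both lectin gene groups of chromosome 6, in chromosome order, with members in red and other genes in grey, dark red for members with an adjusted p under 0.05 by edgeR, and crosses for genes with too few counts. In the group on the left 6 of 7 tested members are called, and in the group on the right only Clec12a is, at 2.78.

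Since the macrophage markers rose too, each tested member was also divided by the summed counts of the 10 macrophage markers of the same library, an alternative chosen after seeing the data. Per 1000 macrophage marker counts, 4 of the 26 members were higher in all HFD libraries than in all ND libraries. The share of all tested genes on this scale was not computed, so the counts of higher and lower members cannot be read against it. Clec4d went from 0.703 ± 0.083 to 8.11 ± 6.78 (SD, n = 3), an 11.5-fold difference that was 6.08-fold without HFD replicate 3. Clec12a went from 9.29 ± 0.66 to 19.7 ± 1.33, or 2.12-fold, with the HFD libraries between 18.6 and 21.2. Siglecf was 2.23-fold and Clec4a2 1.35-fold higher by this measure. For Clec12a and Clec4a2 the HFD libraries, which differed widely in CPM, drew close together on this scale. The same held for Clec4a3 (6.84 to 7.26) and Siglecf (0.217 to 0.264). The values of Siglecf rest on few counts, 2, 3 and 6 on the ND and 24, 16 and 32 on the HFD. The diets overlapped for Clec4a3, Clec4b1, Clec4e, Siglec1 and Cd22, and the means of Clec4a3 were 7.10 ± 0.74 and 7.11 ± 0.23. Some of these overlaps ended when a library was left out. Cd22 was then 3.04-fold higher without ND replicate 2. Clec4e was 2.15-fold higher without ND replicate 1 and 1.98-fold higher without HFD replicate 2. Without HFD replicate 1, Clec4b1 was 1.32-fold and Siglec1 1.28-fold lower.

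Since the divisor rose on the HFD, a gene with an unchanged level is lower on this scale, and a count of lower members is no trait of these genes. The remaining 17 members were lower per macrophage marker count in all HFD libraries. Among them were genes known from myeloid cells: Clec4a1 (1.61-fold lower), Clec10a (1.67-fold), Clec5a (1.72-fold), Cd33 (2.49-fold), Clec4n (3.66-fold, and 5.61-fold without HFD replicate 3) and Siglece (4.22-fold). Genes known from other cells, such as Clec3b (3.54-fold) and Clec14a (4.18-fold), were also lower on this scale, on which the divisor rose. For every member without overlap the exact permutation test gave p = 0.1, the smallest possible with 3 against 3, and Lyz2 alone gave 902 CPM of the sum on the ND and 3099 CPM on the HFD, as means.

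**Figure D5:**
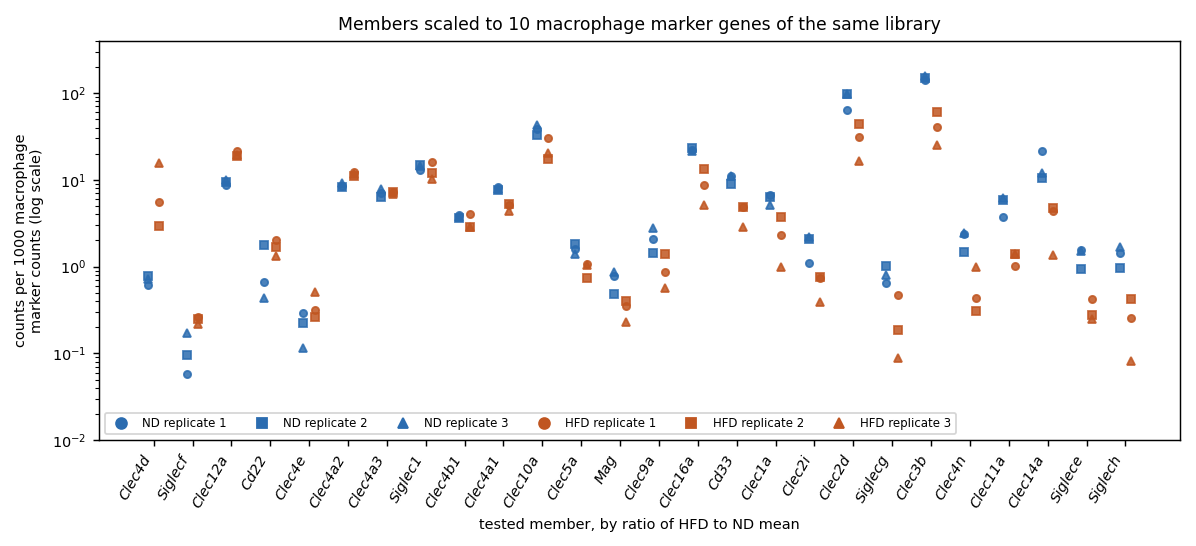
Counts of each tested member per 1000 summed counts of 10 macrophage markers in the same library, on a log scale, ordered by the ratio of the HFD mean to the ND mean, with ND libraries in blue and HFD libraries in orange. Clec4d, Siglecf, Clec12a and Clec4a2 are the members whose 3 HFD points all stand above the ND points, and 17 members have all 3 below. The divisor rose on the HFD, and the share of all genes on this scale was not computed.

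Of 14 adaptors, kinases and other signalling proteins downstream of the activating receptors, 12 were called higher, against 9.85% of all tested genes, and none was lower. Like the other gene lists and the roles of the members, this list was chosen with earlier results of these data known. Hcst (adjusted p = 0.0503) and Bcl10 (adjusted p = 0.0709) did not pass by edgeR. The median log2 fold change was 1.71. The adaptor Blnk went from 8.39 ± 0.95 to 84.1 ± 50.1 CPM (3.32), Tyrobp from 58.6 ± 5.57 to 358 ± 205 CPM (2.61), Syk from 38.6 ± 3.24 to 226 ± 119 CPM (2.55) and the exchange factor Vav1 from 10.2 ± 1.59 to 44.9 ± 18.1 CPM (2.14). These genes are expressed by macrophages in general, whose markers rose too, and the part of that in the rise was not tested. The count of higher genes depended on single libraries. Without ND replicates 1, 2 and 3 it was 4, 4 and 6, and without HFD replicate 1 it was 6. On the inhibitory side, 2 of 3 phosphatases rose, Ptpn6 with a log2 fold change of 1.98 (adjusted p = 0.0125, edgeR) and Inpp5d with 1.63 (adjusted p = 0.0121), while the widely expressed Ptpn11 was at -0.14 (adjusted p = 0.612). Neither was called without HFD replicate 1, ND replicate 1 or ND replicate 2.

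Among 44 further genes for proteins with a C-type lectin domain, 34 were tested by edgeR, 2 were called higher, against 9.85% of all tested genes, and 3 lower, against 6.04%, a share near that of all genes. DESeq2 called 5 higher and 4 lower. Cd72, an inhibitory receptor of B cells that is also found on macrophages, went from 2.68 ± 0.93 to 35.0 ± 23.8 CPM, with a log2 fold change of 3.70 (adjusted p = 0.0102, edgeR). Mrc2, the collagen receptor Endo180, rose from 33.4 ± 3.06 to 145 ± 17.01 CPM, with a log2 fold change of 2.12 (adjusted p = 0.0013, edgeR) and little spread on either diet, a call that held without any single library. The call of Cd72 was lost without ND replicate 1 or 2 (adjusted p = 0.0508 and 0.0534). Thbd, thrombomodulin, fell by 1.57 (adjusted p = 0.0156, edgeR), a call lost without HFD replicate 1 or ND replicate 1 (adjusted p = 0.0754 and 0.0546). Cd209g was at -1.18 (adjusted p = 0.0446, edgeR), lost without HFD replicate 1 or any ND replicate (adjusted p = 0.0984 to 0.134), as was Mgl2 above. The median of the list was 0.03, and over the fits without a library 1 to 6 of its genes were higher, with 1 without ND replicate 1 or 2, 4 without HFD replicate 3 and 6 without HFD replicate 2, and 0 to 4 lower.

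Genes that make, attach or remove sialic acid, the ligand of Siglecs, went both ways. Of 32 genes 24 were tested by edgeR, 8 were called higher and 2 lower, against 9.85% and 6.04% of all tested genes, with a median log2 fold change of 0.15. The sialyltransferases St6galnac4 (1.37, adjusted p = 0.0261), St8sia4 (0.99, adjusted p = 0.00735) and St6gal1 (0.98, adjusted p = 0.0341), which makes the α2,6-linked ligand of Cd22, rose by edgeR, and St3gal6, which attaches α2,3-linked sialic acid, fell by 1.08 (adjusted p = 0.0103). St3gal6 was at 35.8, 34.4 and 36.0 CPM on the ND and at 18.7, 18.8 and 12.8 CPM on the HFD. The call of St8sia4 held without any single library, that of St3gal6 was lost without ND replicate 1 (adjusted p = 0.0508), and those of St6galnac4 and St6gal1 were lost without HFD replicate 1 or any ND replicate (adjusted p = 0.0710 to 0.109). Without HFD replicate 1 or ND replicate 1, 2 or 3, 1 gene of the list was higher, without HFD replicate 3 there were 5, and 0 to 4 were lower over the 6 fits. Of 8 known protein partners of the members, 7 were tested and Itga11, a subunit of the receptor for osteolectin, rose (0.90, adjusted p = 0.0218, edgeR), and no partner was called without HFD replicate 1, ND replicate 1 or ND replicate 3. Pdpn, Mmrn2, Sap130, Klrb1b, Cd24a and Spn did not pass by edgeR, and DESeq2 also called Spn higher (adjusted p = 0.0405) and Cd24a lower (adjusted p = 0.00236).

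Of the other cell type lists, the dendritic cell list had 2 of 7 markers higher by edgeR, Itgax, called without any single library too, and Ccr7, called in 1 of these 6 fits, with a sum of 47.4 to 53.2 CPM on the ND and 171 to 362 CPM on the HFD. Of the plasmacytoid dendritic cell list 2 of 4 genes were tested and Cox6a2 was higher (called in 2 of the 6 fits), and of the neutrophil list 3 of 6 were tested, S100a8 being called higher (2 of the 6 fits) and Camp lower (3 of the 6 fits). No T or NK cell (0 of 6), platelet (0 of 3 tested), fibroblast (0 of 6), mesothelial (0 of 5) or epithelial (0 of 2 tested) marker was called by edgeR with all libraries, and DESeq2 called Pf4 of the platelet list higher (adjusted p = 0.0471). The epithelial sum was 224 CPM in ND replicate 3 and 9.03 to 12.5 CPM in the other libraries, and ND replicate 3 also held the most counts of Clec2l (29) and Clec18a (20). Their part in the values of the members was not tested.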

How the data were processed

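Epididymal fat RNA (TRIzol) was sequenced from 3 ND and 3 HFD samples after preparation with the NEBNext Ultra kit. The authors deposited gene counts, not normalized, and FPKM values, which scale fragments to transcript length and library size. The submitters' processing notes name CASAVA 1.8, fastp, HISAT2 2.0.5, featureCounts 1.5.0-p3 and DESeq2 1.20.0, and list a human genome build, whereas the study's methods name TopHat, Cufflinks and a mouse build. The deposited identifiers are mouse Ensembl genes, and the aligner behind the counts could not be settled from the sources used here. No library column was left unused (0).

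Counts were tested with edgeR 4.0.16 (TMM, filterByExpr, robust quasi-likelihood fit, diet as the only term) under R 4.3.3, with Benjamini-Hochberg adjustment and a threshold of 0.05, checked on simulated counts. CPM values use TMM-scaled library sizes. Ratios within libraries were tested with an exact 2-sided permutation test. Of the 54532 identifiers, 54495 were found in GENCODE M21 (GRCm38). Members, gene lists, roles and cell type markers were chosen with earlier results of these data known. Every called member, the 10 most abundant members and tested members whose diets do not overlap are given by library, and up to 4 called genes with the largest changes are named from each pathway list. Alternatives were DESeq2 1.42.0, limma-voom and limma 3.58.1 on log2(FPKM + 1) and log2(FPKM + 0.1), with an FPKM of at least 0.5 in 3 libraries or no filter, other scalings and count filters (at least 10 counts in 3 libraries, or none), a replicate block and leaving out each library. The ratios and the division by macrophage markers were added after seeing the data. Replicates within a diet differed by more than sampling noise, with a chi-square per gene of 19.0 to 167. The floor of 3 counts covers counting error only.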

Additional observations from a re-analysis of the deposited data

How the results depend on the processing

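Of the fold changes of single members under the alternatives, 344 kept their direction and their side of the threshold, 40 kept the direction and lost the call, 3 gained one and 21 turned sign. Members called higher numbered 10 by edgeR and 7 to 11 under every scaling, count filter, test and FPKM alternative except limma on log2(FPKM + 1) without a filter, and none was called lower under any alternative. With limma on log2(FPKM + 1), 8 members, 2070 of 14784 genes, 22 pathway genes higher and 5 lower were called with the filter, and 3 members, 579 of 28568 genes, 7 pathway genes higher and 1 lower without it, the filter being the only difference between these fits. Against 5 by edgeR, pathway genes lower were 3 with library size only and 3 with no count filter. Leaving out a library gave 2 to 12 members higher, 474 to 3940 genes called, 6 to 33 pathway genes higher and 0 to 7 lower, with fewer samples in each fit.

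All changes of sign were in members that were not called. Clec2d went from -0.01 to 0.0153 with limma-voom, 0.000405 on log2(FPKM + 0.1), 0.000250 on log2(FPKM + 1) with or without a filter, 0.0143 with the replicate block, 0.04 without HFD replicate 3, 0.10 without ND replicate 2 and 0.04 without ND replicate 3, over a range of -0.17 to 0.10 without single libraries. Clec4n went from 0.04 to -0.39 with limma-voom, -0.38 on log2(FPKM + 0.1), -0.20 on log2(FPKM + 1) with or without a filter, -0.37 with the block, -1.17 without HFD replicate 3 and -0.15 without ND replicate 2, with 0.47 the highest, without HFD replicate 2. Clec1a was -0.12 without HFD replicate 2 and -0.08 without ND replicate 3 (up to 0.25), Clec2i was -0.06 without HFD replicate 1 and -0.19 without ND replicate 1 (up to 0.18), and Siglecg was 0.0911 without HFD replicate 2 and 0.06 without HFD replicate 3 (down to -1.01).

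Samples with the same replicate number did not deviate together (r = -0.067, -0.039 and -0.0021). With 3 samples a diet this cannot exclude a pairing, and the labels state none. With a replicate block in the fit, 1886 genes and 7 members were called, 20 pathway genes higher and 2 lower, and Cd22 (adjusted p = 0.0605), Clec4a1 (adjusted p = 0.0503) and Clec4e (adjusted p = 0.104) did not pass in edgeR. The depth limits Siglecf, Clec4e and the 12 members that were not tested, each of which had under 30 counts in every library.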

Other observations

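Clec7a (Dectin-1), the β-glucan receptor with its own hemITAM, was left out of the members because the annotation gives it the biotype of a polymorphic pseudogene. It had 302, 223 and 361 counts on the ND and 1412, 836 and 2459 on the HFD, and all HFD libraries lay above the ND. Its log2 fold change was 2.51 (SE 0.38, adjusted p = 0.00990, edgeR), a call that held in 4 of the 6 fits that left out a library and was lost without ND replicate 1 (adjusted p = 0.0503) and ND replicate 2 (adjusted p = 0.0515). Clec2f had no count on the ND and 4, 1 and 1 counts on the HFD, and Clec2j had none in any library.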
